A study of Zea mays with 24 samples.

Results

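WRKY transcription factors are plant proteins that bind DNA through a domain with the amino acid stretch WRKY and a zinc finger. The genes described here are those of the maize leaf table whose name or transcription factor family contains WRKY. Each had an FPKM (fragments per kilobase of gene, scaled by a library size factor) of at least 0.5 in 3 or more of the 24 libraries. By this rule 83 of 130 WRKY genes were taken, out of 46430 genes in the table and 23978 that passed the same minimum.

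Leaves of 24 maize plants were sequenced, 3 for every 1 of 8 groups. The line called Y478 is the inbred line Ye478, and Y7-1 is a single T4-generation transgenic line made from it, which carries 1 construct of *ZmPMP3g*, a small membrane protein gene, behind a tripled CaMV 35S promoter and was selected with the herbicide Basta. Plants of both lines were kept at a pot mix moisture of 70% (control) or dried to an upper threshold of 50% (moderate drought). Each was without or with exogenous abscisic acid (ABA), the drought hormone, sprayed on the leaves at 15 mg/L. The paper says that control seedlings were sprayed with the same volume of tap water. The second fully expanded leaf was collected at day 9 after the 50% threshold was reached. Each line thus has the groups control and moderate drought, and the same with ABA, named control-exogenous ABA and moderate drought-exogenous ABA. With 1 transgenic line, an effect of the construct cannot be told apart from other differences that arose in that line.

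WRKY factors bind the W-box, a short promoter element found in many defence and stress genes, and they act as activators or repressors. Many are themselves switched on within hours by pathogens, wounding, drought or ABA, are activated by MAP kinases, and are held or helped by VQ proteins. Several members in Arabidopsis are known to act in ABA signalling, in leaf senescence or in phosphate uptake. The WRKY numbers used below are those of the deposited maize names and are not the Arabidopsis numbers, so WRKY50 of the table, for example, is described there as a probable WRKY transcription factor 11. No sequence is shown, because the gene identifiers could not be matched to the reference table at hand.

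Reads in genes were 15762667 to 18428177 per library, and 1 read of a gene of 1 kilobase was worth 0.0502 to 0.0734 FPKM, so a level near 0.5 FPKM rests on few reads. Leaf markers were abundant in every library, with a mean log2(FPKM + 0.5) of 6.38 to 8.83 over 29 light harvesting genes, 6.07 to 7.78 over 8 bundle sheath genes and 4.59 to 5.26 over 25 mesophyll genes of C4 photosynthesis. The PMP3 family gene Zm00001d024778 was not higher in Y7-1 than in Y478 under control (299 ± 61.2 against 308 ± 119 FPKM, SD, n = 3), and whether reads of the construct were counted to it is not given, so it does not check the line labels. The library labelled Y7-1 moderate drought replicate 3 stood apart. Among 1966 genes (8.2% of those tested) whose 9 Y478 and 9 Y7-1 libraries of the other treatments did not overlap, that library lay on the Y478 side for 81.1%, while the other Y7-1 moderate drought libraries lay there for 6.41% and 12.5%. The WRKY genes gave the same picture: 9 of 83 did not overlap between the lines in the other treatments, and for all 9 that library lay on the Y478 side. The number of the 83 WRKY genes past the test in comparisons with this group is therefore given with and without it. Values of single genes, and the lists of other genes, hold every library unless stated. In bulk leaf, fewer cells of a type and less RNA per cell cannot be told apart.

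The WRKY genes covered a wide range of levels. Of the 83, 10 had a mean of at least 10 FPKM over the 24 libraries, 43 lay from 1 to 10, and 30 lay under 1. Their median mean level was 1.69 FPKM, below the 4.96 FPKM of all tested genes. The minimum was met in all 24 libraries by 37 genes, in 6 to 23 libraries by 34 and in 3 to 5 libraries by 12. The last genes to enter were WRKY20 and WRKY85, each at the minimum in 3 libraries. Just outside were WRKY28, WRKY26 and WRKY117, each in 2. Of the 47 WRKY genes below the minimum, 7 had no read in any library and 33 were detected but never reached 0.5 FPKM.

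WRKY50 (Zm00001d002405, chromosome 2, 12046655 to 12047909 in the coordinates of the table) had the highest mean, 59.9 FPKM. Its range over libraries ran from 18.3 to 128 FPKM. It was followed by WRKY48 (Zm00001d015515, chromosome 5, 95183890 to 95185688), described as a probable WRKY transcription factor 40, with a mean of 31.8 FPKM and a range from 4.68 to 65.5. The Arabidopsis factor of that number is known as a repressor in ABA signalling and defence. WRKY7 (Zm00001d044315) came next at 31.3 FPKM, but its description is a gamma subunit of an SNF1-related kinase, an energy-sensing kinase, and its family entry is not WRKY. It is 1 of 3 members taken by name that have another or no family entry, and Zm00001d024275, taken by its family entry, is described as DAYSLEEPER, a zinc finger BED protein. WRKY68 (Zm00001d011133, chromosome 8, 140010389 to 140011159) had a mean of 20.2 FPKM. WRKY61 (Zm00001d047309) and WRKY122 (Zm00001d050023) followed with 17.0 and 16.6 FPKM. WRKY61, WRKY122 and WRKY68 did not differ in mean beyond the spread of WRKY68, which ran from 1.12 to 101 FPKM.

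The spread over libraries also differed between genes. On the log2(FPKM + 0.5) scale the SD over 24 libraries was 0.16 for WRKY7, 0.21 for WRKY61, 0.23 for WRKY110 and 0.27 for WRKY102. It was 1.84 for WRKY68, 1.54 for WRKY75, 1.38 for WRKY32 and 1.26 for WRKY82. For WRKY68 the pooled SD within groups was 0.94 and for WRKY75 it was 0.76, so for both genes much of the spread lay between groups, whereas for WRKY61 the spread within groups (0.22) was as large as over all libraries.

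**Figure D1:**
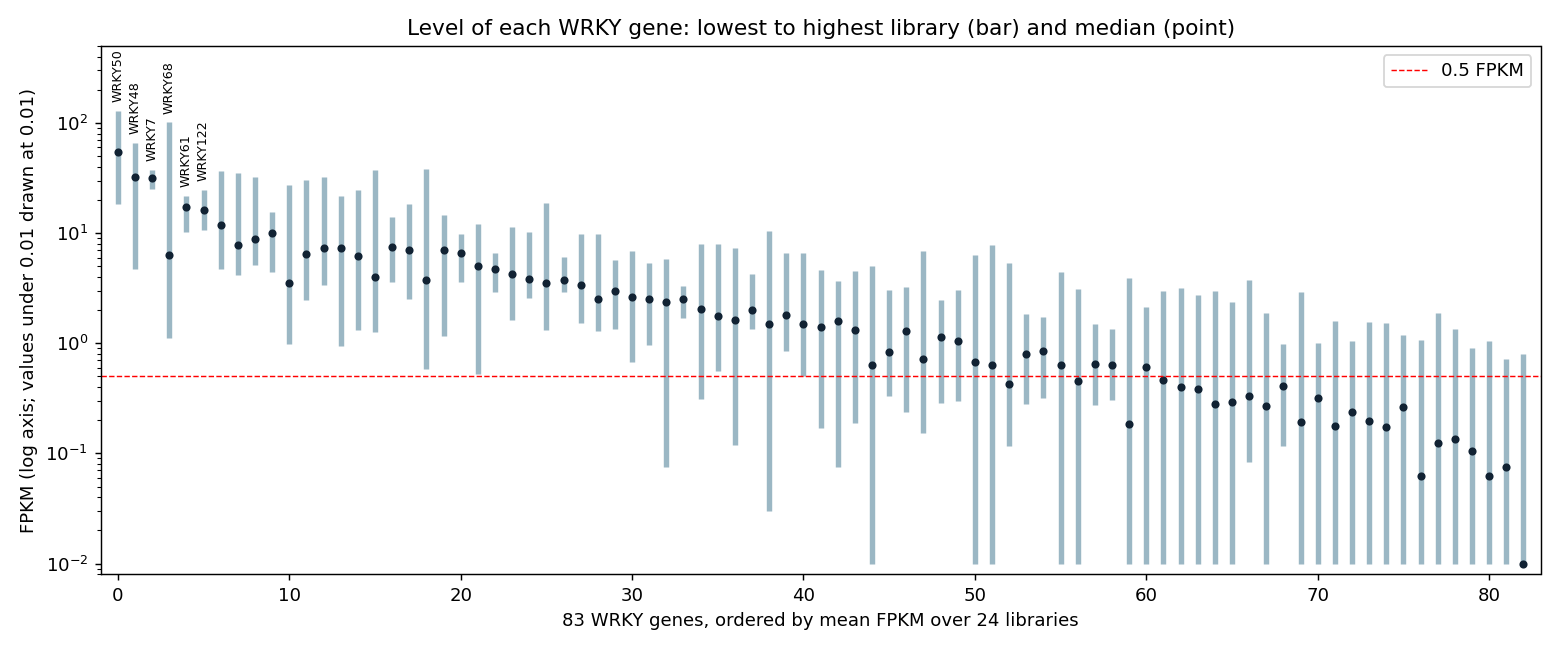
Level of each of the 83 WRKY genes in FPKM on a log axis, ordered by mean over 24 libraries. The bar runs from the lowest to the highest library, the point is the median, and the dashed line is the minimum of 0.5 FPKM. Means run from 59.9 FPKM for WRKY50 to 0.14 for WRKY96, and WRKY7 has a far shorter bar than its neighbours.

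The first question was how the transgenic line differed from its parent. Averaged over 4 treatments, 41 of 83 WRKY genes differed between Y7-1 and Y478, 28 lower and 13 higher in Y7-1 (limma over all tested genes, adjusted p under 0.05, 12 plants against 12). The 13 include WRKY7, WRKY96 and Zm00001d024275, whose annotation as WRKY genes is uncertain. The share, 49.4%, is close to the 48.9% of all tested genes that passed. By direction, 33.7% of the WRKY genes were lower against 24.3% of all genes, and 15.7% were higher against 24.6%. Without Y7-1 moderate drought replicate 3, 44 passed, 31 lower and 13 higher (51.8% of all tested genes, 25.9% in each direction). With every library in, the median difference over the WRKY genes was -0.31 on the log2 scale, and over all tested genes 0.00. Among genes with a mean of at least 1 FPKM, a limit set after the data were seen, 20 of 53 WRKY genes were lower and 8 higher, beside 26.2% and 24.3% of 19251 genes. Because genes could enter through the group where they are high, these counts are a description of the family.

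The most abundant of the genes lower in Y7-1 was WRKY50, described as a probable WRKY transcription factor 11, whose Arabidopsis namesake dampens basal defence. Its FPKM in Y478 was 76.7, 68.4 and 58.4 under control, 68.5, 50.1 and 106 under control-exogenous ABA, 81.7, 58.9 and 80.6 under moderate drought, and 106, 128 and 126 under moderate drought-exogenous ABA. In Y7-1 it was 24.4, 30.5 and 35.8, then 18.4, 22.8 and 18.3, then 26.6, 37.6 and 103, then 38.0, 35.2 and 37.0 in the same order. The lines did not overlap in any treatment other than moderate drought, where the 103 came from the library that stood apart. The average difference was -1.33 ± 0.17 (SE) on the log2 scale (adjusted p = 6.35e-06), and -1.47 without that library.

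WRKY68, a small gene described only by its WRKY domain, was the gene furthest below Y478. Its control values were 7.85, 5.20 and 7.73 FPKM in Y478 and 2.68, 2.48 and 2.17 in Y7-1. In plants given moderate drought-exogenous ABA they were 86.8, 45.2 and 80.9 FPKM in Y478 and 2.55, 4.05 and 5.26 in Y7-1. The groups were thus separate in both treatments and far apart in the second, with a log2 difference there of -4.00 ± 0.71 (adjusted p = 9.44e-04) and an average of -2.53 ± 0.35 (adjusted p = 1.64e-05). Under control alone it was not past the test (adjusted p = 0.242).

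WRKY83 (Zm00001d038023, chromosome 6, 145529821 to 145531626) was lower in each treatment, and it and WRKY14 were the WRKY genes past the test under moderate drought with every library in. Y478 plants ranged from 4.60 to 12.1 FPKM (median 7.39, n = 12). Y7-1 plants ranged from 0.52 to 5.36 (median 1.93, n = 12), where the highest value was that of the library that stood apart. The average difference was -1.67 ± 0.22 (adjusted p = 7.94e-06). Its call under moderate drought was near the threshold (adjusted p = 0.0471) and was lost without replicates 1 or 2 of either line (highest adjusted p = 0.256). Zm00001d012413, an unnamed gene on chromosome 8 (174053520 to 174058410) described as a probable WRKY transcription factor 49, was 4.42, 4.38 and 3.08 FPKM in Y478 and 0.59, 2.44 and 0.49 in Y7-1 under control, and averaged -1.52 ± 0.19 (adjusted p = 4.67e-06). Its highest Y7-1 control plant lay below the lowest Y478 control plant.

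Other genes lower in Y7-1 with large average differences were WRKY82 (-1.43 ± 0.35), WRKY106 (-1.38 ± 0.22), WRKY123 (-1.34 ± 0.18) and WRKY108 (-1.33 ± 0.22). In the same order they passed in 1, 2, 3 and 2 of the single treatments. Under control WRKY82 was at -0.25 (limma, adjusted p = 0.859). WRKY108 is described as a probable WRKY transcription factor 75, and the Arabidopsis factor of that number is known in phosphate starvation and leaf senescence. It had 0 FPKM in 8 of 12 Y7-1 libraries, and its highest Y7-1 value, 1.26 FPKM, was again in the library that stood apart. WRKY93 (Zm00001d039245, chromosome 3, 474649 to 476986), described as WRKY transcription factor 6, ranged from 3.55 to 18.6 FPKM in Y478 (median 4.37) and from 1.32 to 4.41 in Y7-1 (median 1.97), an average difference of -1.18 ± 0.20 (adjusted p = 1.17e-04). The Arabidopsis WRKY6 acts in senescence and represses phosphate transport. WRKY2 (Zm00001d016052), described as WRKY transcription factor 22, was lower by less, -0.44 ± 0.13 (adjusted p = 0.00947).

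WRKY75 (Zm00001d029564, chromosome 1, 76584638 to 76589606), described as a probable WRKY transcription factor 4, was the gene furthest above Y478. In Y478 its FPKM was 2.35, 1.33 and 1.31 under control and 3.73, 1.44 and 2.29 under moderate drought-exogenous ABA. In Y7-1 it was 19.6, 17.8 and 16.4 under control and 15.4, 16.9 and 14.5 under moderate drought-exogenous ABA. Over all treatments the highest Y478 plant was at 3.73 FPKM and the lowest Y7-1 plant at 8.96, apart from the 1.12 of Y7-1 moderate drought replicate 3. The difference was 3.12 ± 0.58 without treatment (adjusted p = 0.00193). With ABA it was 3.02 ± 0.58 in watered plants (adjusted p = 0.00142) and 2.50 ± 0.58 in droughted ones (adjusted p = 0.00444). Each passed after any single library was left out. Under moderate drought it was 1.63 (adjusted p = 0.138) with all libraries and 2.62 (adjusted p = 3.16e-04) without replicate 3.

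Further genes were higher in Y7-1 at lower levels. WRKY86 (Zm00001d011496) was 1.29, 0.71 and 0.32 FPKM in Y478 and 6.29, 2.43 and 2.80 in Y7-1 under control, with an average difference of 1.35 ± 0.24 (adjusted p = 1.97e-04). WRKY78 (Zm00001d016457), also described as a probable WRKY transcription factor 11, averaged 1.19 ± 0.26 (adjusted p = 0.00109). WRKY125 (Zm00001d037607), described as a probable WRKY transcription factor 50, averaged 1.18 ± 0.29 (adjusted p = 0.00242). Under moderate drought its sign was the other way, -0.63 with all libraries and -0.34 without Y7-1 replicate 3, neither past the test. Its Y478 values there of 1.84, 1.85 and 0.36 FPKM overlapped the 0.83, 0.82 and 0.24 of Y7-1. WRKY111 and WRKY103, both described as probable WRKY transcription factor 69, averaged 0.79 ± 0.22 (adjusted p = 0.00698) and 0.62 ± 0.21 (adjusted p = 0.0222). Under moderate drought WRKY103 also had the other sign, -0.59 with all libraries and -0.62 without Y7-1 replicate 3, neither past the test.

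A pair of low genes was almost silent in Y478. WRKY27 (Zm00001d039531, chromosome 3, 7394664 to 7395768) had 2 reads over the 12 Y478 libraries and 102 over the 12 Y7-1 libraries. It had no read in the Y7-1 moderate drought replicate 3. WRKY96 (Zm00001d033471, chromosome 1, 263620528 to 263621882), described in the table as a putative DNA-binding protein of the WRKY family, had 0 reads in every Y478 library and 56 reads in Y7-1. The study's own text gives this gene the name of a bHLH factor, so its identity as a WRKY gene is uncertain. Its Y7-1 values were uneven, from 0 in 4 plants to 0.80 FPKM, and since both genes reached the minimum only in Y7-1, these reads are a description.

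**Figure D2:**
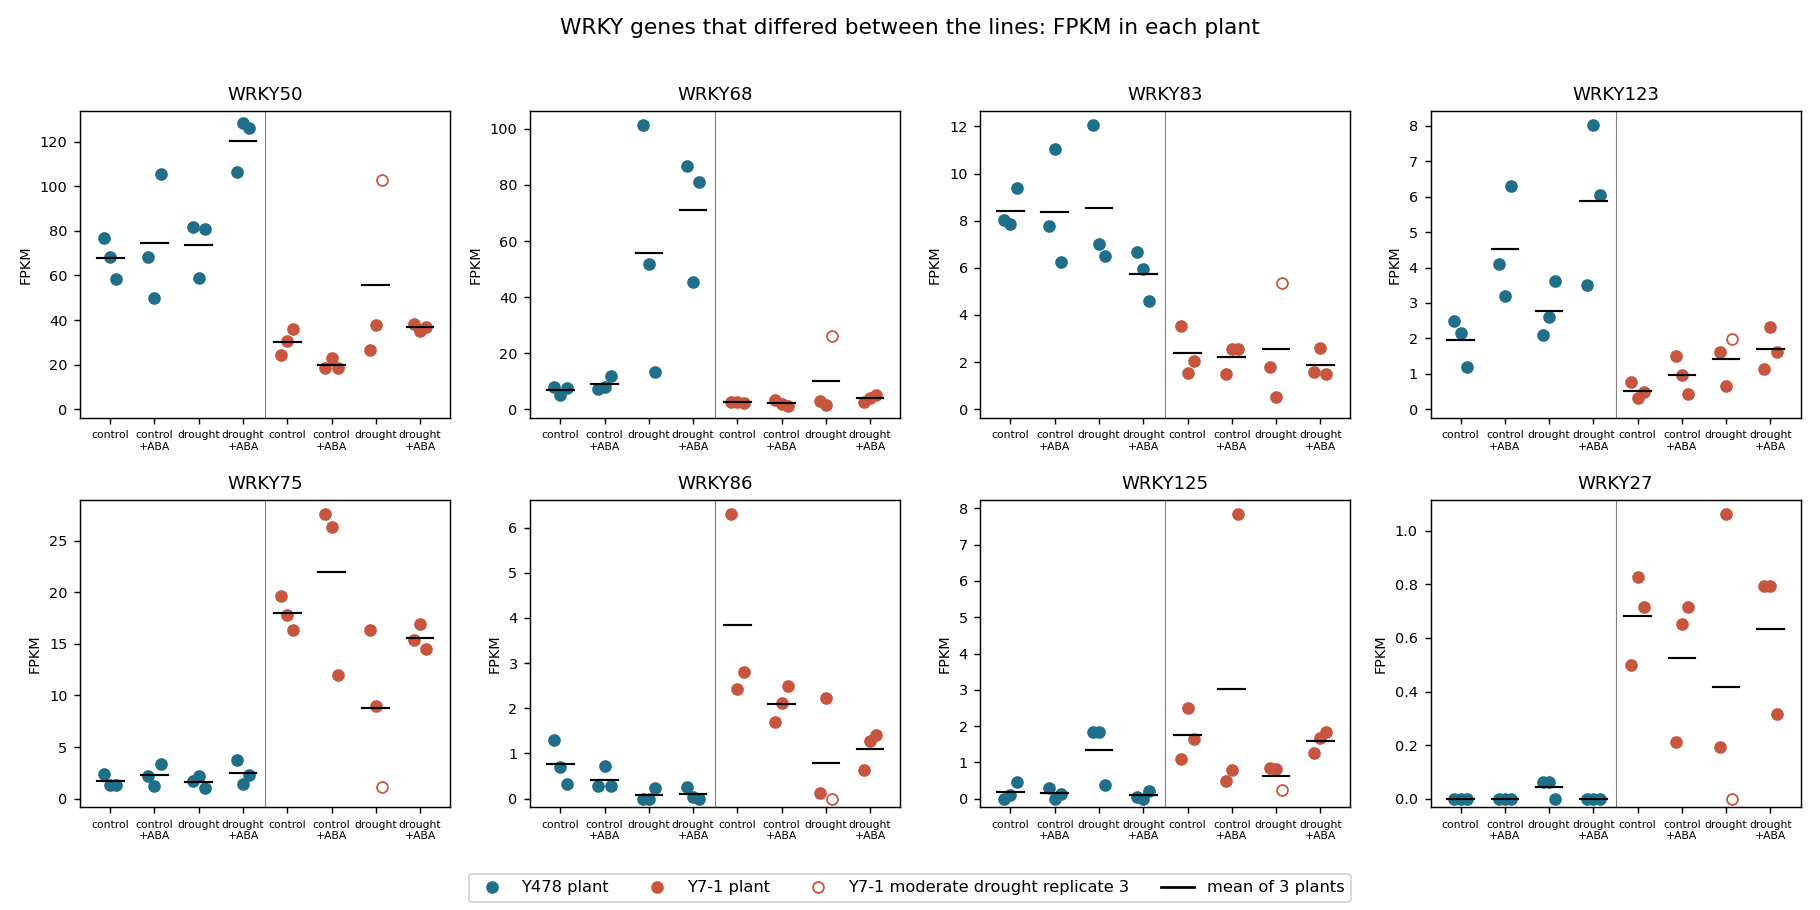
FPKM in each plant for 8 WRKY genes that differed between the lines, by treatment. Blue points are Y478 plants, red points Y7-1 plants, the open point is Y7-1 moderate drought replicate 3, and the line is the mean of 3 plants. WRKY75 lies between 8.96 and 27.6 FPKM in the filled Y7-1 points and at most at 3.73 in Y478, and the open point lies with the Y478 plants for WRKY50, WRKY75 and WRKY27.

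Within single treatments the number of WRKY genes that differed between the lines varied with the plants. Under control 11 passed, 4 higher and 7 lower (13.3% of the WRKY genes against 12.2% of all tested genes, which were 5.63% higher and 6.57% lower). These 11 include WRKY27 (higher) and WRKY85 (lower), which each reached the minimum in only 1 line, so their calls are a description. Under control-exogenous ABA 23 passed, 6 higher and 17 lower (22.0% of all genes, 10.5% higher and 11.5% lower), and under moderate drought-exogenous ABA 25 passed, 7 higher and 18 lower (28.1% of all genes, 13.8% higher and 14.3% lower). Under moderate drought 2 passed, WRKY83 and WRKY14, both lower (1.16% of all genes, 0.742% lower and 0.413% higher), and the WRKY14 call had an adjusted p = 0.0498. Without replicate 3 of Y7-1 this rose to 19, 17 lower and 2 higher (12.8% of all genes, 7.11% lower and 5.68% higher), so that 1 library decides the count in this treatment. It was 6 without Y478 moderate drought replicate 3 and 0 without replicates 1 or 2 of either line. Under control the count was 4 to 6 when any 1 of the 6 plants was left out. All 8 groups share 1 residual variance in the fit, so Y7-1 moderate drought replicate 3 enters every test. Without it 15 passed under control, 5 higher and 10 lower (15.1% of all genes, 7.23% higher and 7.9% lower). With ABA it was 25 in watered plants, 6 higher and 19 lower (24.8% of all genes), and 26 in droughted ones, 7 higher and 19 lower (30.7%). In watered plants with ABA, leaving out Y478 replicate 1 gave 12 and leaving out Y478 replicate 3 gave 14. The genes gained under moderate drought without Y7-1 replicate 3 included WRKY68 at -3.97 (adjusted p = 1.33e-04), WRKY82 at -2.88 (adjusted p = 0.0111) and WRKY50 at -1.19 (adjusted p = 0.00451).

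In the other 3 treatments 8 WRKY genes passed each time in 1 direction: WRKY50, WRKY83, WRKY116, WRKY123 and Zm00001d012413 were lower, and WRKY75, WRKY86 and WRKY27 were higher. Because WRKY27 reached the minimum only in Y7-1, its calls are a description and do not test a difference. Of these 8, only WRKY75 kept its call in all 3 treatments whichever library was left out, and the control call of WRKY50, for example, was lost without any of 5 of the 6 plants (highest adjusted p = 0.114). Of the 41 genes that passed on average, 35 had the same sign in all 4 treatments. WRKY91 (Zm00001d023336, chromosome 10) passed in 1 treatment. Under control-exogenous ABA it was 22.1, 24.6 and 19.9 FPKM in Y478 and 3.42, 9.00 and 1.31 in Y7-1, a difference of -2.48 ± 0.64 (adjusted p = 0.0103), whereas under control the plants of both lines overlapped. Without Y7-1 control-exogenous ABA replicate 3 that call was lost (highest adjusted p = 0.0562). WRKY74 (Zm00001d044010) had 0 in all Y7-1 control-exogenous ABA libraries and a mean of 1.00 FPKM in Y478, at least 15.9-fold higher against a floor of 3 reads over the group. Under moderate drought-exogenous ABA, WRKY82 (-2.50 ± 0.71), WRKY32 (-2.23 ± 0.58) and WRKY45 (-1.95 ± 0.40) were lower in Y7-1, and WRKY78 (2.42 ± 0.52) was higher. WRKY32 had the other sign under control, where its plants did not overlap (10.1, 7.68 and 10.6 FPKM in Y7-1 against 3.12, 2.50 and 2.18 in Y478). The difference of 1.68 ± 0.58 was not past the test (adjusted p = 0.0628), whereas the study's own test listed it as higher in Y7-1. The calls of WRKY82 and WRKY32 under moderate drought-exogenous ABA were lost without Y478 moderate drought-exogenous ABA replicate 3 (highest adjusted p = 0.0682 and 0.0558).

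**Figure D3:**
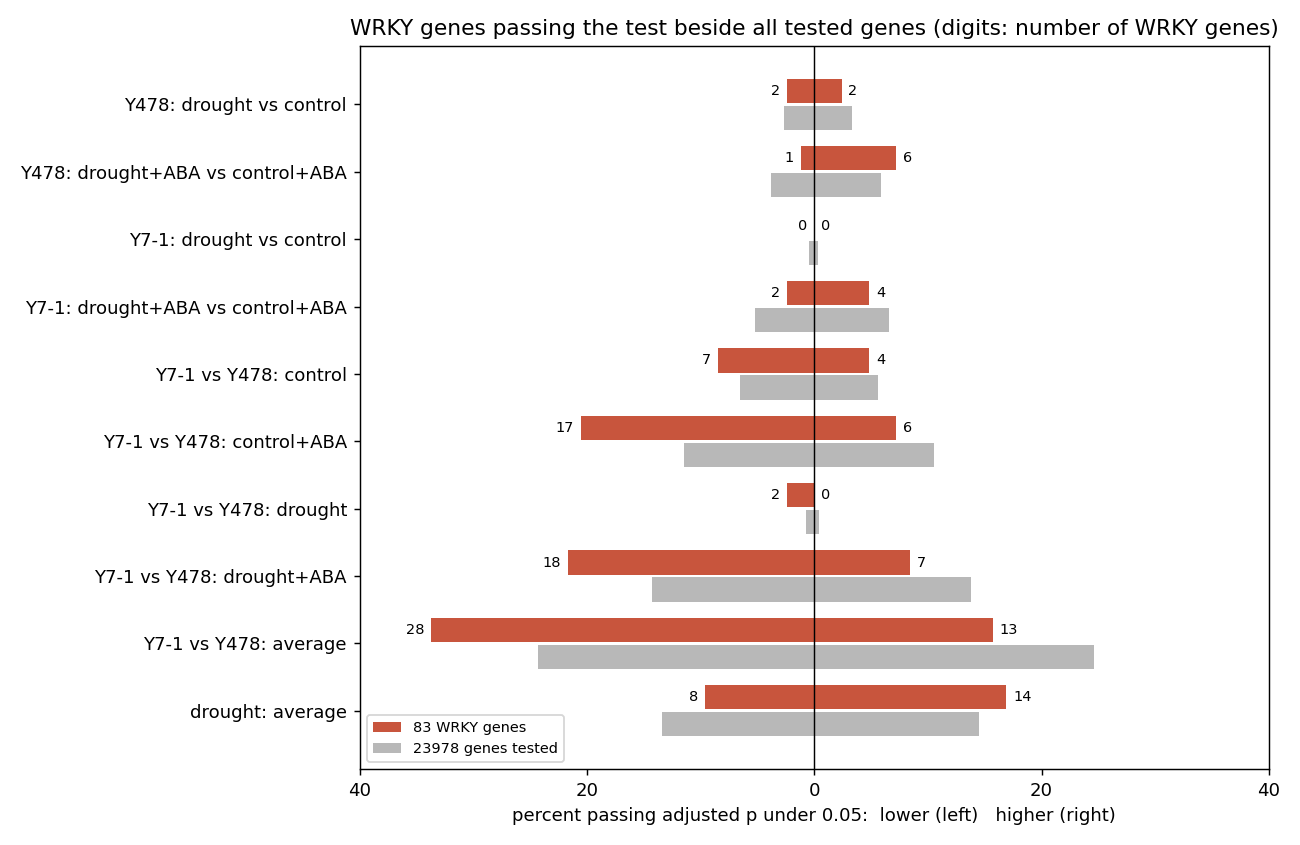
Percent of the 83 WRKY genes (red) and of 23978 tested genes (grey) that passed an adjusted p under 0.05 in each comparison, lower to the left and higher to the right. Digits are numbers of WRKY genes. In the average between lines the red bar is longer than the grey on the lower side (33.7% against 24.3%) and shorter on the higher side (15.7% against 24.6%).

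The second question was which WRKY genes responded to drought. In Y478 without ABA, 4 WRKY genes passed, 2 higher and 2 lower (4.82% against 5.98% of all tested genes, 3.34% higher and 2.64% lower). The lower genes include WRKY85, whose call is only a description for the reason given below. WRKY68 rose from 7.85, 5.20 and 7.73 FPKM under control to 101, 51.9 and 13.5 under moderate drought, or 2.52 ± 0.71 on the log2 scale (adjusted p = 0.0416). WRKY92 (Zm00001d010399) rose from 3.63, 2.49 and 6.99 to 30.5, 19.3 and 7.38 FPKM, 1.90 ± 0.52 (adjusted p = 0.0392). The groups did not overlap for either gene, and in both the third drought plant was by far the lowest. Without that plant 9 WRKY genes passed, without Y478 control replicate 2 it was 1, and without control replicate 1 or drought replicates 1 or 2 it was 2. Without Y7-1 moderate drought replicate 3, which enters through the shared variance, it was 6. Of these, 4 were higher and 2 lower (7.4% of all tested genes, 4.12% higher and 3.28% lower). The rise of WRKY68 passed without Y478 moderate drought replicate 3 and was lost when any other single plant of its groups was left out (highest adjusted p = 0.236) and under each other setting tried except scaled FPKM (adjusted p from 0.0506 to 0.111, with 0.0567 for voom), and that of WRKY92 was lost without replicates 1 or 2 of either group (highest adjusted p = 0.216), without the minimum (adjusted p = 0.0559) and with only the compared groups (adjusted p = 0.127).

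Zm00001d012413 fell under drought in Y478, from 4.42, 4.38 and 3.08 FPKM to 0.56, 0.95 and 0.64. No drought plant reached any control plant, and the log2 fold change of -1.87 ± 0.38 (adjusted p = 0.00773) passed with any single library left out. WRKY85 (Zm00001d018656), described as a probable WRKY transcription factor 57, fell from 0.39, 0.72 and 0.69 FPKM to 0 in all 3 drought plants. This is at least 13.3-fold lower against a floor of 3 reads over the group, and the call was lost without Y478 control replicate 2 or Y478 moderate drought replicate 1 (highest adjusted p = 0.064). WRKY85 reached the minimum only in Y478 plants without drought, so its fall is a description and does not test a change.

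With exogenous ABA, 7 WRKY genes changed under drought in Y478, 6 higher and 1 lower (8.43% against 9.66% of all tested genes, 5.84% higher and 3.82% lower). WRKY32 (Zm00001d028962, chromosome 1, 53030837 to 53032126) had the largest rise, from 0.58, 1.34 and 1.06 FPKM under control-exogenous ABA to 15.9, 12.1 and 38.4 under moderate drought-exogenous ABA. Its log2 fold change was 3.77 ± 0.58 (adjusted p = 0.00112) and passed with any single library left out. WRKY68 rose by 2.88 ± 0.71 (adjusted p = 0.015), from 7.29, 7.80 and 12.01 to 86.8, 45.2 and 80.9 FPKM. WRKY71 (1.78 ± 0.51), WRKY30 (1.38 ± 0.38), WRKY14 (1.21 ± 0.37) and WRKY16 (1.18 ± 0.36) also rose, and Zm00001d012413 fell (-1.67 ± 0.38). The number that passed was 1 when replicate 3 of the droughted group was left out and 2 without replicate 1 of the watered group, and it was 3 without watered replicate 2 or droughted replicate 1. Fitted on these 2 groups alone it was 3. Without Y7-1 moderate drought replicate 3 it was 9, 8 higher and 1 lower (11.6% of all tested genes, 6.92% higher and 4.66% lower). WRKY32 was the only one of the 7 to pass whichever library was left out.

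In Y7-1 without ABA no WRKY gene passed, with or without replicate 3 (limma, 0.713% of all tested genes with it, 0.288% higher and 0.425% lower, and 0.0834% without it), while 14 had an unadjusted p under 0.05 and voom on the recovered reads also called 0. Without Y7-1 moderate drought replicate 1 it was 2 and without replicate 2 it was 1. These calls, made with replicate 3 in, were of WRKY75, WRKY86 and WRKY122. Without replicate 3 the genes were at -0.54, -1.64 and 0.62 (limma, adjusted p = 0.666, 0.195 and 0.198). WRKY68 was 2.68, 2.48 and 2.17 FPKM under control and 2.83, 1.65 and 26.1 under drought, so that 1 library held the only high value. WRKY82 showed the same pattern, with 1.74, 1.82 and 11.4 FPKM under drought.

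With exogenous ABA, 6 WRKY genes changed under drought in Y7-1, 4 higher and 2 lower (7.23% against 11.8% of all tested genes, 6.56% higher and 5.19% lower). WRKY30 (Zm00001d034073, chromosome 1, 283193730 to 283197425), described as a probable WRKY transcription factor 57, rose from 0.33, 0.41 and 0.75 FPKM to 2.49, 2.88 and 1.89, or 1.56 ± 0.38 on the log2 scale (adjusted p = 0.0135). The Arabidopsis WRKY57 is known for raising drought tolerance when overexpressed. The call was lost without Y7-1 moderate drought-exogenous ABA replicate 2 (highest adjusted p = 0.0633). WRKY30 was also the WRKY gene called in both lines with ABA, and in Y478 it rose from 0.75, 0.55 and 0.46 to 1.60, 2.75 and 2.72 FPKM.

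WRKY99 (Zm00001d040554), described as a probable WRKY transcription factor 47, fell in Y7-1 with ABA from 2.49, 1.71 and 10.4 FPKM to 1.17, 0.03 and 0.46, by 2.14 ± 0.50 on the log2 scale (adjusted p = 0.0111), a call lost without Y7-1 moderate drought-exogenous ABA replicate 2 (highest adjusted p = 0.0706). WRKY6 (Zm00001d013630) fell from 3.32, 6.85 and 9.83 FPKM to 2.54, 1.54 and 1.42, by 1.53 ± 0.35 (adjusted p = 0.0092), and passed with any single library left out. WRKY78, Zm00001d024768 and WRKY59 rose by 1.70 ± 0.52, 1.46 ± 0.42 and 1.26 ± 0.36. Without Y7-1 moderate drought-exogenous ABA replicate 2 only 1 WRKY gene passed, and 3 did without replicate 3 of that group or replicate 2 of the watered one. Fitted on these 2 groups alone, 0 passed. Without Y7-1 moderate drought replicate 3 it was 8, 6 higher and 2 lower (13.8% of all tested genes, 7.64% higher and 6.11% lower).

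**Figure D4:**
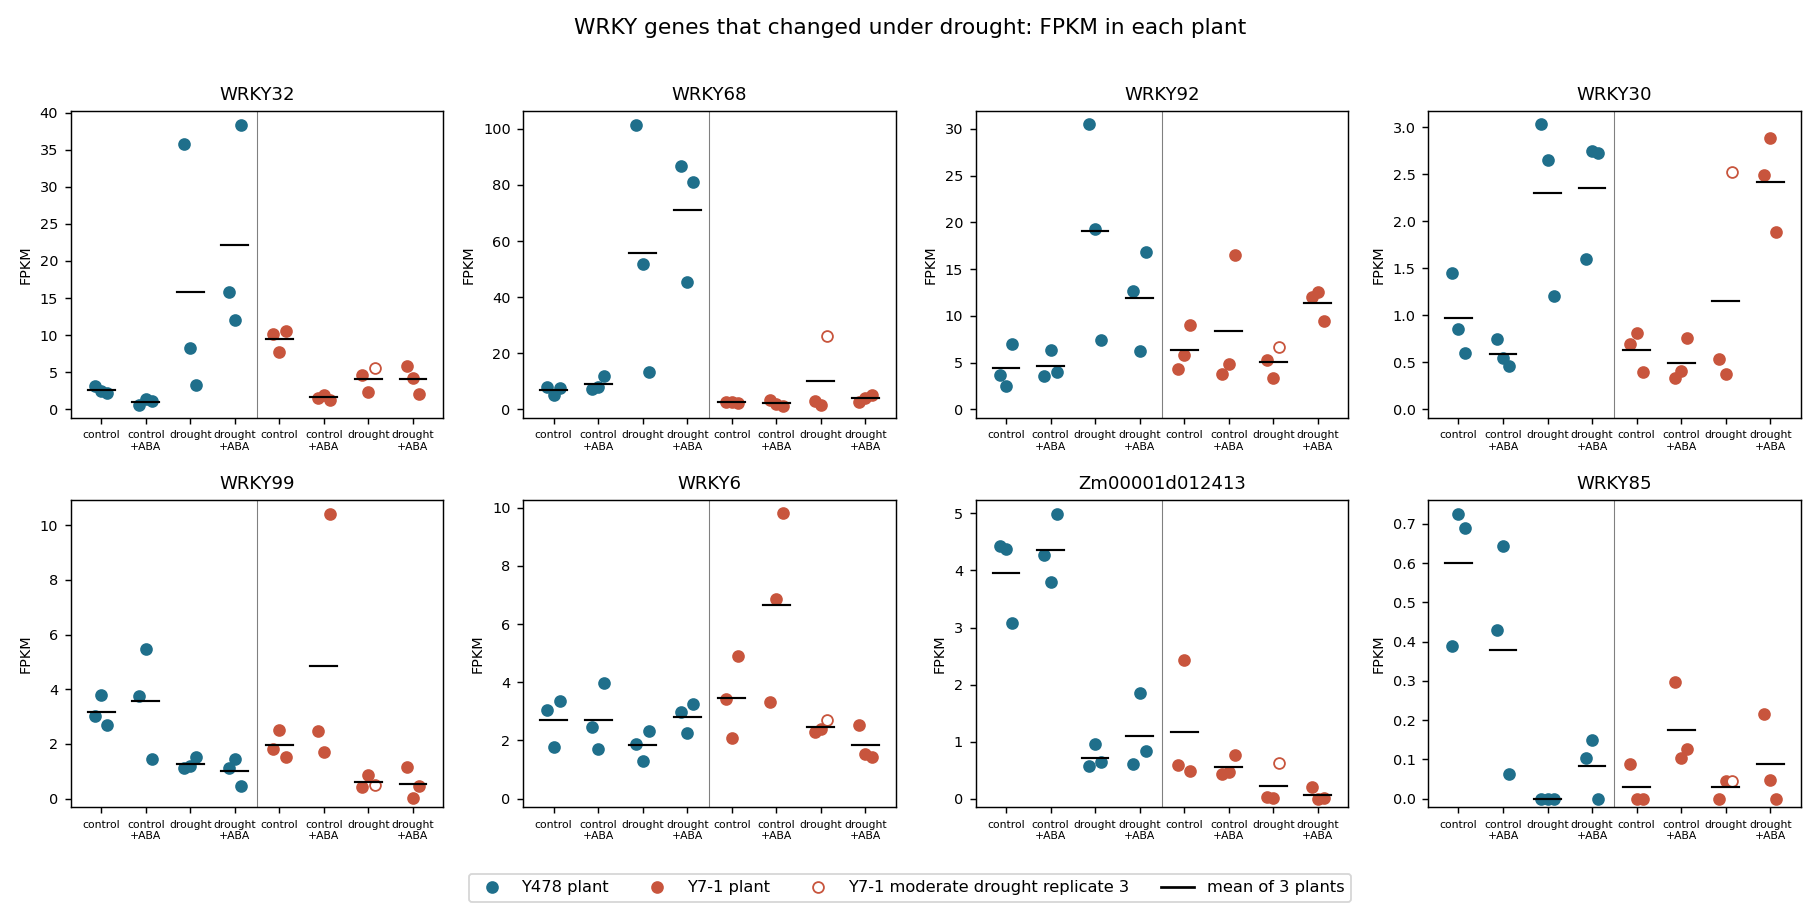
FPKM in each plant for 8 WRKY genes that changed under drought in at least 1 line, with symbols as in the plot of genes that differed between the lines. WRKY32 reaches 38.4 FPKM in Y478 under moderate drought-exogenous ABA and 5.85 in Y7-1, and Zm00001d012413 falls from at least 3.08 FPKM in the 6 Y478 plants without drought to at most 1.85 in the 6 with it.

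Averaged over lines and ABA, drought changed 22 WRKY genes, 14 higher and 8 lower (26.5% against 27.9% of all tested genes, 12 plants against 12). Without Y7-1 moderate drought replicate 3 it was 21, 12 higher and 9 lower (26.9% of all tested genes, 14.1% higher and 12.8% lower). Of the 22, 18 passed with and without that library. WRKY68 (1.80 ± 0.35), WRKY32 (1.36 ± 0.29), WRKY30 (1.04 ± 0.19), WRKY92 (0.88 ± 0.26), Zm00001d024768 (0.87 ± 0.21) and WRKY14 (0.82 ± 0.18) led the rises. WRKY99 (-1.42 ± 0.25), Zm00001d012413 (-1.39 ± 0.19), WRKY86 (-1.12 ± 0.24) and WRKY18 (-0.67 ± 0.16) led the falls. These averages hold every library and do not show that both lines changed. In Y7-1 without ABA, leaving out that library moved WRKY68 from 0.97 to -0.13, WRKY50 from 0.64 to 0.08 and WRKY14 from 0.38 to -0.16. WRKY122 (0.68 to 0.62) and WRKY99 (-1.16 to -1.10) moved little. The more abundant WRKY50 rose by 0.60 ± 0.17 (adjusted p = 0.0134) and WRKY122 by 0.28 ± 0.09 (adjusted p = 0.0211), whereas WRKY48 had 0.64 ± 0.24 (adjusted p = 0.0567) and WRKY61 -0.03 ± 0.09 (adjusted p = 0.87). The FPKM of all 83 WRKY genes together was 328 to 436 in Y478 plants without drought and 392 to 732 with it, and 279 to 378 in Y7-1 plants without drought. In Y7-1 under drought it was 284 to 482, the highest being replicate 3 of moderate drought, and 332 to 359 with ABA.

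Whether the lines responded to drought differently was tested as an interaction, and no WRKY gene passed, either without ABA (0.00834% of all tested genes, 0.00417% in each direction) or with it (0.0292%, with 0.0167% higher and 0.0125% lower). At an unadjusted p under 0.05 there were 10 WRKY genes each time, and voom called 0. Without Y478 moderate drought replicate 3, 1 gene passed in the test without ABA. Without Y7-1 moderate drought replicate 3, 0 WRKY genes passed in that test (0.00417% of all tested genes). The estimates were wide. For WRKY32 the drought response was 1.78 ± 0.58 in Y478 and -1.16 ± 0.58 in Y7-1 without ABA, a difference of -2.95 ± 0.81 (adjusted p = 0.369), and with ABA it was 3.77 and 1.04, a difference of -2.73 ± 0.81 (adjusted p = 0.254). For WRKY71 with ABA the difference was -2.78 ± 0.72 (adjusted p = 0.171). Its FPKM went from 6.0, 7.68 and 4.47 to 19.7, 14.5 and 35.2 in Y478 and from 15.5, 23.7 and 7.48 to 5.04, 5.21 and 11.9 in Y7-1. A gene called in 1 line and not in the other is therefore not shown to respond differently. Over the 83 genes the responses with ABA in the lines, which share no plant, had a Pearson r of 0.36 and a Spearman rho of 0.32 as a description, and 54 had the same sign. The genes share libraries within each line and are not independent.

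**Figure D5:**
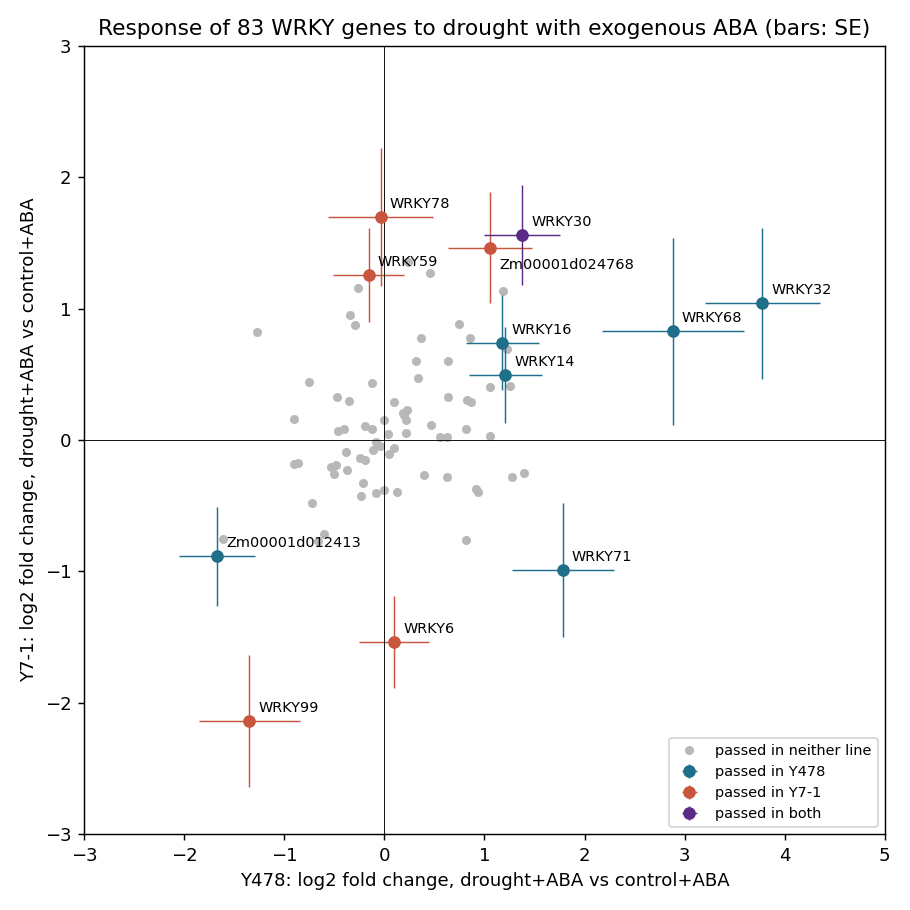
Log2 fold change of 83 WRKY genes from control-exogenous ABA to moderate drought-exogenous ABA in Y478 (horizontal) and Y7-1 (vertical), with bars of 1 SE for genes past the test in a line. WRKY30 is past the test in both lines at 1.38 and 1.56, and WRKY32 lies furthest right at 3.77 with 1.04 in Y7-1.

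The third question was whether spraying ABA changed WRKY genes. No WRKY gene passed in any of the 4 comparisons with and without ABA in the same line and water supply, where 0.00417%, 0.00417%, 0.0375% and 0.163% of all tested genes passed in Y478 control, Y478 moderate drought, Y7-1 control and Y7-1 moderate drought, nor in the average over all plants (0.0209%, of which 0.0125% higher and 0.00834% lower). The 0.0375% were 0.0167% higher and 0.0209% lower, and the 0.163% were 0.121% higher and 0.0417% lower. At an unadjusted p under 0.05 there were 5, 7, 11 and 12 WRKY genes, and 6 in the average, and voom called 0 in each. Without Y7-1 moderate drought replicate 1, 1 gene passed for ABA under drought in Y7-1. Without replicate 3 of that group 0 WRKY genes passed in this comparison (0.0792% of all tested genes) and 0 in the average (0.217%). WRKY32 in Y7-1 had the largest difference of a watered group, from 10.1, 7.68 and 10.6 FPKM without ABA to 1.56, 1.92 and 1.30 with it. These plants did not overlap, and the log2 difference of -2.25 ± 0.58 had an unadjusted p of 9.58e-04 but an adjusted p = 0.133 in limma. The study's own test listed WRKY32 as lower with ABA in this comparison, so the call depends on the method. In Y478 the same gene went from 3.12, 2.50 and 2.18 to 0.58, 1.34 and 1.06 FPKM (adjusted p = 0.611). WRKY5 (Zm00001d044680), described as a probable WRKY transcription factor 38, had no read in any Y7-1 moderate drought plant and 2.36, 1.152 and 0.86 FPKM with ABA (adjusted p = 0.114). The study's own test listed WRKY5 as higher with ABA there. WRKY59 had 0.04, 0.30 and 0.46 FPKM without and 1.08, 1.86 and 1.77 with ABA under drought in Y7-1 (adjusted p = 0.0894).

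Several WRKY genes lie next to another one. WRKY37 (Zm00001d020136) and WRKY79 (Zm00001d020137) lie 94815 bases apart on chromosome 7 on the same strand, with mean levels of 7.64 and 6.96 FPKM. Both were lower in Y7-1 on average, by 0.90 ± 0.19 (adjusted p = 9.49e-04) and by 0.88 ± 0.21 (adjusted p = 0.00209) on the log2 scale. WRKY81 and WRKY40, 27560 bases apart on chromosome 3, had 0.34 and 2.90 FPKM. In some other neighbouring pairs 1 gene was expressed and the other was near 0, such as WRKY91 at 8.12 FPKM beside WRKY63 at 0.01, and WRKY16 at 3.99 FPKM, whose neighbours WRKY77 and WRKY76 were at 0.00. WRKY27 lies 3626 bases from WRKY56, which had 0.09 FPKM. How reads shared by close copies were counted is not given, so levels of near-identical neighbours are uncertain.

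Genes that work with WRKY factors were taken by words in their descriptions, and their counts hold every library. Of 16 tested VQ proteins, which bind WRKY factors, 6 were higher and 0 lower under drought on average, with a median of 0.44 on the log2 scale beside 0.00 for all genes, and 1 was higher and 6 were lower in Y7-1 (median -0.19). Of 59 genes of the MAP kinase cascade, 12 were higher and 5 lower under drought, led by the named MAP kinase kinase kinase18 at 1.53 ± 0.26, and 4 were higher and 24 lower in Y7-1 (median -0.25). Of 21 calmodulins, calcium sensors, 7 were higher and 0 lower under drought, and 3 were higher and 10 lower in Y7-1 (median -0.46). Of 41 pathogenesis-related genes, a group with known WRKY targets, 7 were higher and 2 lower under drought, and 11 were higher and 10 lower in Y7-1. Those higher in Y7-1 included pathogenesis-related protein3 (3.10 ± 0.60) and a basic endochitinase (2.15 ± 0.31). They stand beside the 10 lower genes and do not speak for the list. These counts stand beside 14.5% and 13.4% of all tested genes higher and lower under drought, and 24.6% and 24.3% between the lines.

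Markers of leaf cell types were counted in the same way, to be read beside the same shares of all tested genes (24.6% higher and 24.3% lower between lines, 14.5% and 13.4% under drought). In Y7-1, 0 of 8 bundle sheath genes were higher and 4 lower, and their mean log2 level ranged from 6.07 to 7.22 over Y7-1 libraries and from 7.03 to 7.78 over Y478 libraries. Of 25 mesophyll genes 6 were higher and 9 lower, of 25 epidermis and wax genes 8 and 1, of 10 phloem genes 2 and 3, of 23 senescence genes 7 and 4, and of 29 light harvesting genes 4 and 7. Under drought 0 bundle sheath genes were higher and 4 lower, and 4 epidermis and wax genes were higher and 10 lower. Counts under drought are given for these lists only. The mean log2 level of mesophyll genes was lower under drought in both lines, with and without ABA (in Y478 without ABA 4.87 against 5.17). Light harvesting, phloem and senescence genes went both ways. In Y478 light harvesting went from 7.14 to 6.63 without ABA and from 7.14 to 7.20 with it. Their part in the WRKY differences was not tested.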

How the data were processed

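The authors deposited FPKM values for 24 libraries, which are reads per gene divided by its length and by a size of the library. That size, recovered from the values, was 13616082 to 19901730 and was not the plain depth. In Y478 control-exogenous ABA replicate 3, for example, it was 13660486 beside 18090228 reads in genes. They used the NEBNext Ultra kit, the Illumina NovaSeq and the Novomagic platform, and the submitters' notes name HISAT2 2.0.5. The labels name another tissue, kit and build that are not those of maize. The maize build, annotation and read counter are not given in the sources used here. Multiplying by length and dividing by the smallest step of a library returned whole read counts for 100% of the deposited values (tolerance 0.05). Low values depend on few reads and on the gene length used.

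Genes with at least 0.5 FPKM in at least 3 libraries were tested as log2(FPKM + 0.5) with limma 3.58.1 in R 4.3.3 (8 group means in 1 fit, eBayes with trend, two-sided, Benjamini-Hochberg adjustment over 23978 genes). Fold changes on this scale understate the change of low genes. The fit was tested on simulated data. Tables and figures used Python 3.11.15 with pandas 2.3.3. Groups came from the labels, which call the samples replicates, and the paper says individual plants. Reads of the 83 WRKY genes differed between replicates far beyond counting (chi-square per degree of freedom 5.86 to 54.7 over 24 pairs). Named genes were those in the paper's tables, up to 8 per comparison with the largest change among those past the test, and the 6 with the highest mean. Other genes and comparisons were named after their values were seen (among them WRKY74, WRKY18, WRKY108, WRKY78, WRKY111 and WRKY103 for the line average, WRKY14 under average drought, WRKY59 and WRKY71 outside their calls, the neighbours, the genes at the minimum and the most and least variable genes). WRKY members and lists were chosen with earlier results of these data known. Alternatives were pseudocount 0.1, no minimum, only the groups compared, voom on recovered reads, scaled FPKM, a replicate block, the study's minimum fold and leaving out each library. The 13 genes with WRKY only in their description are not members.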

Additional observations from a re-analysis of the deposited data

How the results depend on the processing

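The number of WRKY genes past the test moved by more than 1.5 times in these cases. For Y478 under drought it was 4, and 2 without the minimum. With ABA it was 7 in Y478 and 3 when only the compared groups were fitted, and in Y7-1 it was 6 and 0. For the lines under control-exogenous ABA it was 23 and 12 with only those groups. Under moderate drought it was 2, and 0 with pseudocount 0.1, with no minimum, with only the compared groups and with the replicate block. With the study's minimum fold, 17 instead of 41 passed on average between the lines and 6 instead of 22 under drought. Leaving out 1 library gave 1 to 9 for Y478 drought, 1 to 9 with ABA, 0 to 2 for Y7-1 drought, 1 to 8 with ABA, 0 to 1 for ABA under drought in Y7-1, 4 to 15 for the lines under control, 12 to 25 with ABA, 0 to 19 under moderate drought and 17 to 26 with ABA, 38 to 46 for their average, 18 to 29 for drought on average and 0 to 1 for the interaction without ABA. Over 189 pairs of a gene and a comparison to which the alternatives were applied, no called result changed direction. Voom on recovered reads called 11548 genes between the lines on average, against 11724. Same-numbered plants did not deviate together (median r 0.00, from -0.24 to 0.32 over 84 pairs), so the replicate numbers are only names, and the replicate block, which lost 5 calls of named genes (WRKY68 in Y478 drought, WRKY111 between lines under control, WRKY83 and WRKY14 between lines under moderate drought and WRKY2 under average drought, limma adjusted p from 0.0507 to 0.0549), says nothing of weaker effects. Scaling FPKM again changed none of these calls, but it moved values by only -0.02 to 0.02 log2 and could hardly do so. With 3 plants a group, the median SE was 0.40 on the log2 scale, so smaller changes were often not detectable.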
